A study of Mus musculus with 12 samples.

Results

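Genes that report on NF-kappaB activity, 9 of the 55335 gene identifiers in the count files, were followed through cardiomyocyte RNA of male mice. They were chosen by name, with earlier results of these data known, and mapped from their Ensembl identifiers with a GRCm38 annotation. They comprised the subunit gene Nfkb1 and the feedback genes Nfkbia, Nfkbiz and Tnfaip3. The others were the cytokine and chemokine genes Il6, Ccl2 and Cxcl1, and the adhesion genes Icam1 and Vcam1. NF-kappaB is a family of dimeric transcription factors that IkappaB proteins hold in the cytoplasm. Signals from cytokine and Toll-like receptors activate the IKK kinase complex, IkappaB is degraded, and the freed dimers enter the nucleus and bind kappaB sites. Among the genes they switch on are their own inhibitors, which closes a negative feedback loop, and chemokines and adhesion molecules that recruit leukocytes. In the heart the chemokine and adhesion genes are known mainly from endothelium, fibroblasts and macrophages, while the feedback genes respond in most cell types.

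The study crossed genotype with diet in 4 groups of 3 libraries. Groups labelled Wt were male C57BL/6J mice and groups labelled ApoE KO were male B6.129P2-Apoe tm1Unc/J mice, which carry a germline knockout allele of the apolipoprotein E gene in every cell. All had 7 weeks of either chow (CD) or a Western-type diet high in fat and cholesterol (HFD). Their age is given as 7 to 8 weeks, and whether that was at the start or the end of the diet was not established here. Nothing in the labels ties each replicate to its own animal, and the p-values therefore reflect only how these libraries scatter, which may be technical.

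The library labelled Wt HFD replicate 3 was left out, as the choice of genes prescribed, so Wt HFD stands at 2 libraries and 11 libraries were used. It held 1347110 counts, 72.7% of its counts over 1332 sense and antisense gene pairs fell on the non-coding member (0.741% to 1.3% in the other libraries), and its column header repeated that of ApoE KO CD replicate 1. The other 11 held 22130323 to 46424614 counts, of which 51.5% to 71.3% were mitochondrial and at least 9340449 were nuclear. Apoe itself went against the genotype labels on chow. Its TMM-scaled CPM (the library's counts scaled to CPM with edgeR's TMM factors) was 2.12 to 3.61 in the libraries labelled Wt CD and 6.93 to 25.3 in those labelled ApoE KO CD. On the Western diet it was 8.44 and 18.9 in Wt HFD and 1.94 to 3.16 in ApoE KO HFD. Counts per gene do not show which exons the reads came from, so they cannot tell a transcript of the knockout allele from an intact one. All directions below are between libraries as labelled. Cardiomyocyte markers, among them the myosin gene Myh6 and the troponin gene Tnnt2, were detected in all 11 libraries, with a summed level of 39005 to 52678 TMM-scaled CPM. Endothelial markers summed to 53.6 to 126.4, macrophage markers to 5.59 to 32.8, and lymphocyte and neutrophil markers to 0.329 to 0.994.

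RefSeq promoter windows (build GRCm38.p6) were found for 5 of the genes and gave the 150 bases before the start site in 5′ to 3′ direction of the gene. These are shown because the genes are grouped by a shared transcription factor. Capitals mark matches to the 10-letter kappaB consensus motif, searched on both strands. In Nfkbia the match lay on the opposite strand, 29 to 20 bases before the start site at chr12:55492648-55492797, minus strand.
Nfkbia: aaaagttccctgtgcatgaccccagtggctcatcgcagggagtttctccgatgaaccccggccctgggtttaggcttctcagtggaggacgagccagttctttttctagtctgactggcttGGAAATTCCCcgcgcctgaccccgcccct
The window of the deubiquitinase gene Tnfaip3 (chr10:19015411-19015560, minus strand) held 2 matches, 125 to 116 bases before the start site on the gene's strand and 12 to 3 bases before it on the other.
Tnfaip3: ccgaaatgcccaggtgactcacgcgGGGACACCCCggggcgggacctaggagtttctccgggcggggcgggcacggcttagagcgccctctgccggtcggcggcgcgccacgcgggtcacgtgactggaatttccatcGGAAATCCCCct
That of the cytokine gene Il6 (chr5:30012964-30013113, plus strand) held 1 match, 44 to 35 bases before the start site.
Il6: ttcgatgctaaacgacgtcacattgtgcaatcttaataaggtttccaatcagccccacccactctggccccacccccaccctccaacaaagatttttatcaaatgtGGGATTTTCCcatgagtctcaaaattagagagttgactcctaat
In the chemokine gene Cxcl1 (chr5:90891095-90891244, plus strand) a match at 71 to 62 bases before the start site overlapped a match on the other strand at 70 to 61, and both are in the same run of capitals.
Cxcl1: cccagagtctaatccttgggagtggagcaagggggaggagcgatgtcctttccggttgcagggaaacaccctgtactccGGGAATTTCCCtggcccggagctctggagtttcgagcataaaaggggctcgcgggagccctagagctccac
The window of the adhesion gene Icam1 (chr9:21015790-21015939, plus strand) held no match to the motif. It ends before the annotated start of the gene at 21015985, and bases outside the window were not searched.
Icam1: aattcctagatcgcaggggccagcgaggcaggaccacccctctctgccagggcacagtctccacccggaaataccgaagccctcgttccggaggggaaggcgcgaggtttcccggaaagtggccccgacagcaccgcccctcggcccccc
So 4 of the 5 genes had a match in the window shown, and 782 of all 32851 windows of this length had one, which is 2.38%. The genes were grouped by this factor beforehand, so the shares are not a test and are no result of these libraries. Tnfaip3 has a further window, at an alternative start site, with no match. A match is a run of letters and was not tested for binding.

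Per kb of exon, Nfkbia, which encodes IkappaBalpha, had the highest level of the 9 genes. Its median over 11 libraries was 3.16 TMM-scaled CPM per kb, with a range of 1.74 to 4.63. The order depends on the length used, which is the union of all annotated exons and not the length of the transcripts present. It was 1610 bases for Nfkbia, 12061 for Nfkb1 and 8870 for Vcam1. Before division by length Nfkb1 was higher, at a median of 16.2 TMM-scaled CPM beside 5.095 for Nfkbia. Nfkb1, which encodes the p105 precursor of the p50 subunit, followed at a median of 1.34 per kb, and its highest library (1.46) was below the lowest library of Nfkbia. Nfkbiz, which encodes the nuclear IkappaB-like protein IkappaBzeta, had a median of 0.889 per kb and overlapped Nfkb1, with a range of 0.474 to 1.57. Below these came Tnfaip3 (A20, a ubiquitin-editing inhibitor of the pathway) at 0.260 and Icam1 at 0.252 per kb. Cxcl1 stood at 0.201, Ccl2 at 0.189 and Vcam1 at 0.138 per kb. Il6 was lowest, with a median of 0.0491 per kb. From Nfkbiz downwards the ranges of neighbours in this order overlapped, so neighbours were not separated by the spread between libraries. Genes farther apart could be: the lowest library of Nfkbiz (0.474 per kb) lay above the highest of Vcam1 (0.188) and of Il6 (0.192). Ranked by level per kb among 21129 protein-coding genes with a count, Nfkbia stood above 86.2% of them and Il6 above 38.5%.

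**Figure D1:**
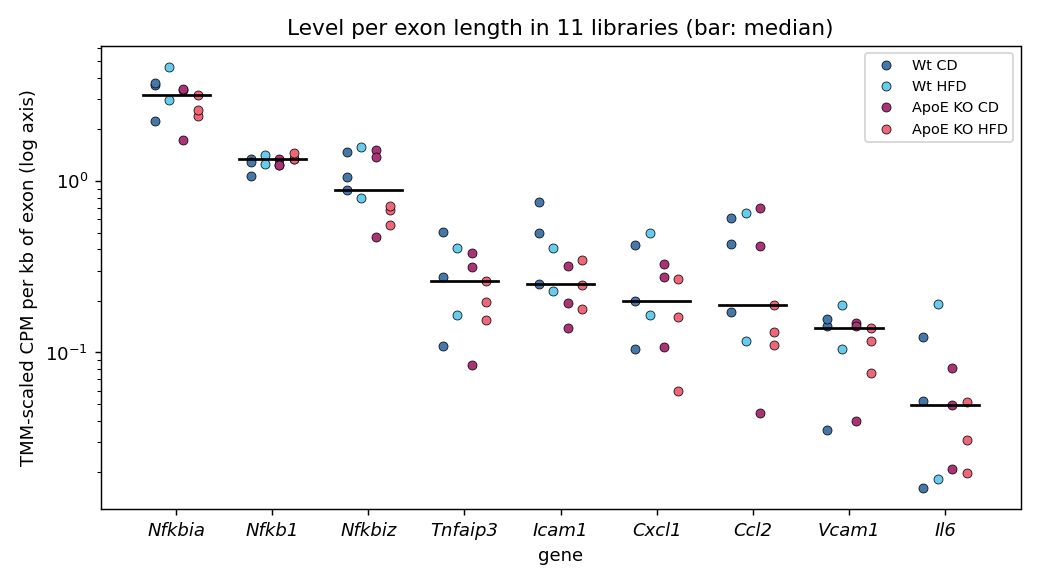
Level of each gene per kb of exon (TMM-scaled CPM per kb, log axis) in 11 libraries, with 1 point per library coloured by group and a bar at the median. The length is the union of annotated exons, and the order of genes depends on it. The points of Nfkbia (1.74 to 4.63) lie above all points of Nfkb1 (1.08 to 1.46), and the points of Il6 are spread over more than a decade of the log axis.

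Nfkb1 (ENSMUSG00000028163, chr3:135584655-135691547, minus strand) was the steadiest of the 9 genes; positions here and below are of the whole gene in GRCm38. Its TMM-scaled CPM was 16.2, 15.6 and 12.97 in the libraries labelled Wt CD, 17.2 and 15.1 in Wt HFD, 16.2, 15.03 and 14.9 in ApoE KO CD, and 16.2, 16.2 and 17.6 in ApoE KO HFD. The highest library was 1.36 times the lowest, and the 3 ApoE KO HFD libraries lay above the highest library of both chow groups, 2 of them by less than the digits shown. The fitted log2 fold change of ApoE KO HFD against Wt CD was 0.16 (SE 0.13), and its 95% interval put the fold between 0.924 and 1.35. By edgeR's quasi-likelihood test with Benjamini-Hochberg adjustment over 16932 tested genes its adjusted p was 0.607, so it did not pass. The intervals of the other 4 comparisons between groups also held 0, with log2 fold changes of 0.04 to 0.12.

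Nfkbia (ENSMUSG00000021025, chr12:55489410-55492647, minus strand) is induced within minutes of NF-kappaB activation and its protein takes the dimers back to the cytoplasm. In TMM-scaled CPM it stood at 5.82, 3.61 and 5.98 in Wt CD, 7.45 and 4.81 in Wt HFD, 5.49, 5.53 and 2.81 in ApoE KO CD, and 5.10, 3.88 and 4.16 in ApoE KO HFD. All groups overlapped. The low library of each chow group, Wt CD replicate 2 and ApoE KO CD replicate 3, lay below all 3 ApoE KO HFD libraries. Its log2 fold changes ran from −0.48 (SE 0.28, ApoE KO HFD against Wt HFD) to 0.25 (SE 0.29, Wt HFD against Wt CD), and none passed.

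Nfkbiz (ENSMUSG00000035356, chr16:55811375-55838899, minus strand), whose protein acts in the nucleus on a subset of NF-kappaB targets, was lowest as a group in ApoE KO HFD. Its TMM-scaled CPM was 4.46, 5.34 and 7.44 in Wt CD, 7.89 and 4.01 in Wt HFD, 7.62, 6.96 and 2.38 in ApoE KO CD, and 3.40, 2.80 and 3.61 in ApoE KO HFD. The ApoE KO HFD libraries lay below every Wt CD and Wt HFD library, while ApoE KO CD replicate 3 lay below all of them. The log2 fold change of ApoE KO HFD was −0.80 (SE 0.37) against Wt CD, −0.85 (SE 0.41) against Wt HFD and −0.77 (SE 0.37) against ApoE KO CD. With edgeR's test the unadjusted p-values were 0.0504, 0.0551 and 0.0577, and the adjusted p-values 0.352, 1.00 and 1.00, so none passed. The interaction of diet with the genotype label was −0.82 (SE 0.55) and did not pass.

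Tnfaip3 (ENSMUSG00000019850, chr10:19000910-19015657, minus strand) varied 5.99-fold between libraries, and the extremes were both on chow. Levels in TMM-scaled CPM were 3.64, 0.785 and 1.99 in Wt CD, 2.96 and 1.20 in Wt HFD, 2.28, 2.74 and 0.607 in ApoE KO CD, and 1.12, 1.42 and 1.88 in ApoE KO HFD. The spread within each of the other groups was wider than within ApoE KO HFD, and all groups overlapped. The log2 fold change of ApoE KO HFD against Wt CD was −0.55 (SE 0.57), with a 95% interval of −1.77 to 0.67.

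Il6 (ENSMUSG00000025746, chr5:30013114-30019981, plus strand), the gene of the pro-inflammatory cytokine interleukin 6, was near the limit of detection and did not pass the filter on low counts, so it has no test. It had 4, 1 and 8 counts in Wt CD, 17 and 2 in Wt HFD, 7, 3 and 2 in ApoE KO CD, and 2, 2 and 5 in ApoE KO HFD, 53 in all. Wt HFD replicate 1 alone held 17 of them. In 7 of the alternative fits it entered the test, and it passed in none of their 42 values (edgeR, smallest adjusted p = 0.443, smallest unadjusted p = 0.0559).

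Ccl2 (ENSMUSG00000035385, chr11:82035571-82037453, plus strand), which encodes the monocyte chemoattractant MCP-1, was also counted in few reads. It had 22, 5 and 13 counts in Wt CD, 27 and 6 in Wt HFD, 28, 12 and 2 in ApoE KO CD, and 9, 4 and 5 in ApoE KO HFD. On the TMM-scaled CPM scale these were 0.696, 0.196 and 0.489, then 0.740 and 0.134, then 0.788, 0.477 and 0.0506, and last 0.215, 0.149 and 0.125. Each group other than ApoE KO HFD held 1 library at or under 0.196 and at least 1 above 0.69, so the groups overlapped. The fitted log2 fold change of ApoE KO HFD against Wt CD, −1.48 (SE 0.82), was the largest among the tested genes of the 9 in that comparison. Its 95% interval ran from −3.19 to 0.23, and its adjusted p from edgeR was 0.427.

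Cxcl1 (ENSMUSG00000029380, chr5:90891241-90893115, plus strand), which encodes a neutrophil chemoattractant, was high and low in much the same libraries. The TMM-scaled CPM values were 0.791, 0.196 and 0.376 in Wt CD, 0.931 and 0.312 in Wt HFD, 0.619, 0.517 and 0.202 in ApoE KO CD, and 0.502, 0.112 and 0.301 in ApoE KO HFD, from 3 to 34 counts per library. The groups overlapped. The log2 fold change of ApoE KO HFD against Wt CD was −0.55 (SE 0.65) and that against Wt HFD was −0.96 (SE 0.69), and neither passed.

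Icam1 (ENSMUSG00000037405, chr9:21015985-21028817, plus strand), the endothelial and leukocyte ligand of beta2 integrins, gave the smallest p-values of the 8 tested genes. Its TMM-scaled CPM was 2.18, 1.10 and 3.31 in Wt CD, 1.78 and 1.00 in Wt HFD, 0.844, 1.39 and 0.607 in ApoE KO CD, and 1.51, 0.784 and 1.08 in ApoE KO HFD. Wt CD replicates 1 and 3 were the highest of the 11 libraries, and Wt CD replicate 2 lay inside the range of the other groups. The log2 fold change of ApoE KO CD against Wt CD was −1.24 (SE 0.41), with an unadjusted p of 0.00765 and an adjusted p of 0.167 by edgeR's test. In ApoE KO HFD against Wt CD it was −0.95 (SE 0.40), with an unadjusted p of 0.0298 and an adjusted p of 0.293. Wt HFD against Wt CD gave −0.67 (SE 0.45), and these 3 comparisons share the Wt CD libraries. Without Wt CD replicate 2 both of the first passed, at −1.56 with adjusted p = 0.0146 by edgeR and −1.26 with adjusted p = 0.0438. In those fits 10.8% and 7.79% of all 16732 tested genes passed too. The annotation places the antisense gene Gm47079 over 511 exon bases of Icam1. It had 1 to 8 counts per library.

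Vcam1 (ENSMUSG00000027962, chr3:116109949-116129688, minus strand), the ligand of the integrin VLA-4 on monocytes and lymphocytes, had no fitted change that passed in any comparison. It was measured at TMM-scaled CPM of 1.27, 0.314 and 1.39 in Wt CD, 1.67 and 0.935 in Wt HFD, 1.32, 1.27 and 0.354 in ApoE KO CD, and 1.03, 0.672 and 1.23 in ApoE KO HFD. Wt CD replicate 2 and ApoE KO CD replicate 3 stood well below the other 9 libraries. The log2 fold change was −0.02 (SE 0.51) in ApoE KO HFD against Wt CD, with a 95% interval from −1.08 to 1.05, so a change of about that size in either direction was not excluded by these libraries.

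**Figure D2:**
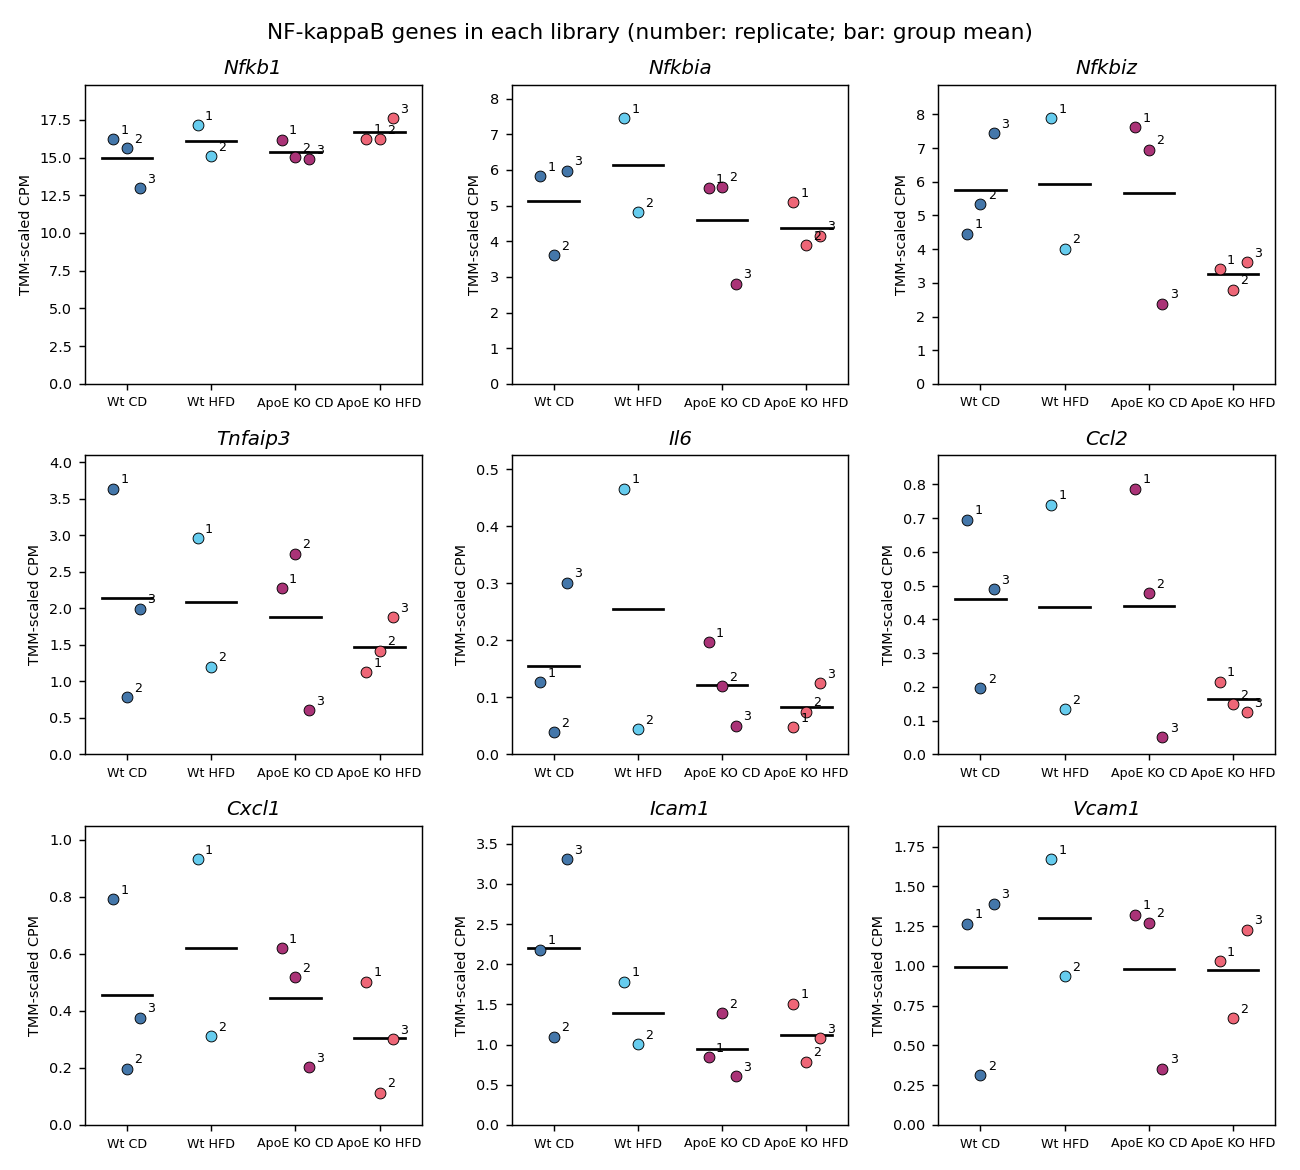
TMM-scaled CPM of each of the 9 genes in 11 libraries, with 1 panel per gene, 1 point per library labelled with its replicate number, and a bar at the group mean. In most panels Wt HFD replicate 1 lies high and ApoE KO CD replicate 3 low, and in most the 3 ApoE KO HFD points lie closer together than those of the other groups of 3.

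None of the 8 tested genes passed in any of the 6 comparisons (edgeR, adjusted p under 0.05), and DESeq2 called none either, giving no adjusted p for 2 of the 8 in each of 3 comparisons. At an unadjusted p under 0.05 edgeR had 1 of 8, Icam1, in ApoE KO HFD against Wt CD and in ApoE KO CD against Wt CD, and 0 of 8 in the others. Few genes passed anywhere. The share of all 16932 tested genes called was 0.154% in ApoE KO HFD against Wt CD, 0.207% in Wt HFD against Wt CD, and 0.0709% in ApoE KO HFD against ApoE KO CD. It was 0.508% in ApoE KO CD against Wt CD, 0.0472% in ApoE KO HFD against Wt HFD, and 0.219% for the interaction. At an unadjusted p under 0.05 the shares of all tested genes, in the same order, were 14.2%, 12.9%, 1.53%, 15.9%, 2.83% and 8.2%.

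Libraries of the 2 groups did not overlap for 2 of the 8 genes in ApoE KO HFD against Wt CD, Nfkb1 higher and Nfkbiz lower, beside 15.6% of all tested genes. The count was 1 of 8 in ApoE KO HFD against ApoE KO CD (Nfkb1 higher, beside 9.03%) and 1 of 8 in ApoE KO HFD against Wt HFD (Nfkbiz lower, beside 21.7%). It was 0 of 8 in Wt HFD against Wt CD (beside 24.7%) and in ApoE KO CD against Wt CD (beside 16.6%).

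The fitted values of ApoE KO HFD lay below 0 for most of the genes, without any passing the test. Against Wt CD 7 of the 8 tested were negative and their median was −0.55 (log2), beside −0.01 and 50.7% below 0 for all tested genes. Against Wt HFD 7 of 8 were below 0 with a median of −0.48, beside 0.01 and 48.1% for all tested genes, and against ApoE KO CD 5 of 8 with a median of −0.19, beside 0.01 and 48.8%. Leaving out single libraries moved these medians, given here over the same 8 genes in every fit. Without Wt CD replicate 1 the first was −0.03 and without Wt CD replicate 2 it was −0.87. Without Wt HFD replicate 1 the second was 0.10, and without Wt HFD replicate 2 it was −0.89. The third was −0.59 without ApoE KO CD replicate 3, and without ApoE KO CD replicate 2 it was 0.07. It came to −0.02 without ApoE KO CD replicate 1 and −0.06 without ApoE KO HFD replicate 2. In Wt HFD against Wt CD the median was 0.08, and it was −0.49 without Wt HFD replicate 1 and 0.55 without Wt HFD replicate 2. For ApoE KO HFD against Wt CD, Wt HFD and ApoE KO CD in turn, all 9 tested macrophage markers lay below 0 (medians −0.46, −0.51 and −1.18). Endothelial markers were below 0 in 9, 10 and 1 of 10 (−0.36, −0.51 and 0.28), and fibroblast markers in 2, 8 and 1 of 8 (0.29, −0.39 and 0.22). Without Wt HFD replicate 1 the macrophage median against Wt HFD was 0.88. The part of these cells in the values was not tested.

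In ApoE KO CD against Wt CD 7 of 8 lay below 0 with a median of −0.08, beside −0.01 and 51.3% for all tested genes. That direction turned with 1 library: without ApoE KO CD replicate 3 the same 8 genes had a median of 0.26 with 7 above 0, and without Wt CD replicate 1 it was 0.14. Without Wt CD replicate 2 it was −0.44 and without ApoE KO CD replicate 1 it was −0.38. The comparisons that name the same group share its libraries.

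**Figure D3:**
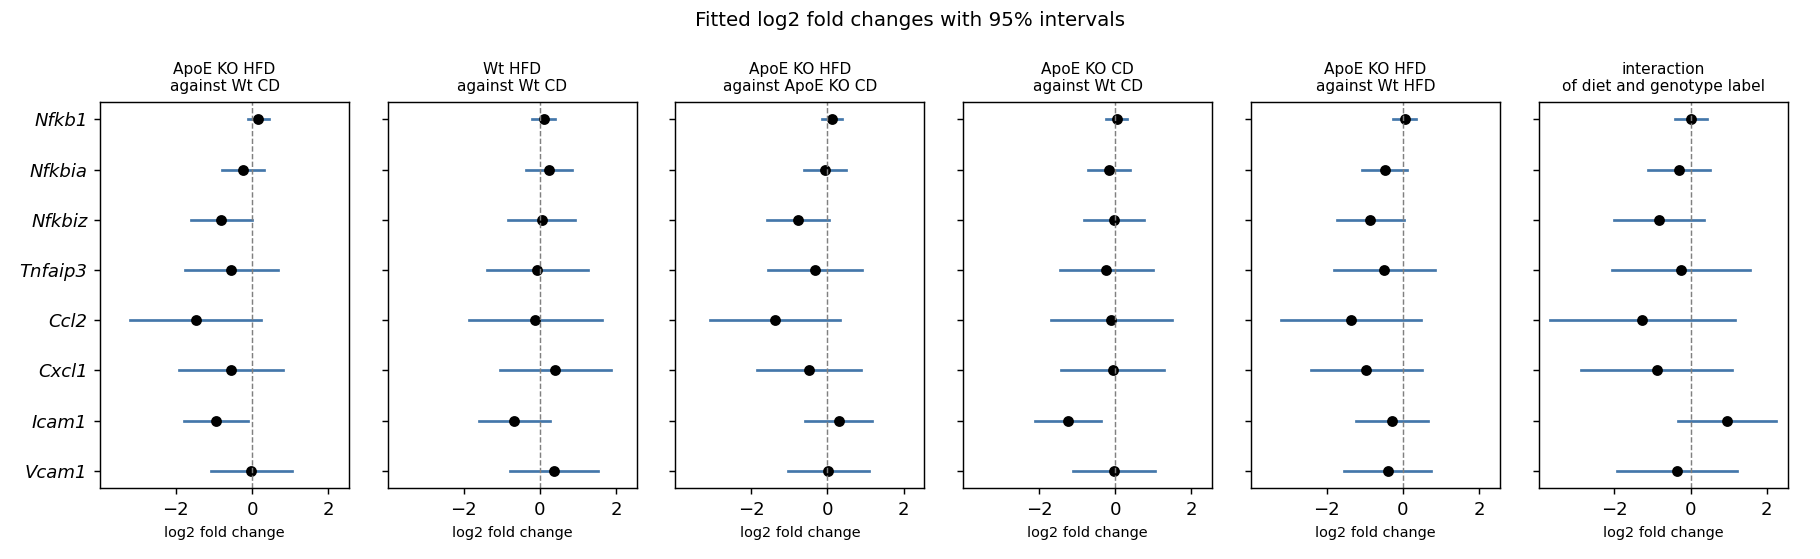
Fitted log2 fold changes of the 8 tested genes (points) with 95% intervals (lines) in 5 comparisons between groups and for the interaction of diet with the genotype label. Only the intervals of Icam1 in ApoE KO HFD against Wt CD (−1.80 to −0.10) and in ApoE KO CD against Wt CD (−2.11 to −0.37) lie clear of 0.

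Many of the 9 genes were high or low in the same libraries. Wt HFD replicate 1 was above the gene's own median over the 11 libraries for 9 of 9 genes, highest of all for 5 of them (Nfkbia, Nfkbiz, Il6, Cxcl1 and Vcam1), and among the 3 highest for 9. Wt HFD replicate 2 was above the median for 0 of 9. ApoE KO CD replicate 3 was above the median for 0 of 9 and lowest of all for 5 (Nfkbia, Nfkbiz, Tnfaip3, Ccl2 and Icam1), whereas ApoE KO CD replicates 1 and 2 were above it for 7 each. Wt CD replicates 1, 2 and 3 were above it for 8, 1 and 7 genes. The ApoE KO HFD libraries were above it for 3, 1 and 2.

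Markers of other cell types also differed between these libraries. The 10 macrophage markers, among them the complement genes C1qa to C1qc and the receptor gene Csf1r, summed to 22.3 TMM-scaled CPM in Wt HFD replicate 1 and 5.59 in replicate 2. In ApoE KO CD they summed to 32.8, 30.7 and 6.12, with the third replicate low as for the NF-kappaB genes. They were 19.99, 11.3 and 10.8 in Wt CD and 8.90, 8.55 and 12 in ApoE KO HFD. All 10 macrophage markers were detected in every library but 1, in which 1 of them was at 0. The 10 endothelial markers summed to 116.9, 54.1 and 120.6 in Wt CD, 91.0 and 126.4 in Wt HFD, 73.7, 61.2 and 53.6 in ApoE KO CD, and 63.9, 74.3 and 92.6 in ApoE KO HFD. Wt CD replicate 2, in which Vcam1 stood low and Icam1 was at its median over the 11 libraries, had the lowest endothelial sum of its group. Wt HFD replicate 2 had the highest sum of all, yet Icam1 (1.00) and Vcam1 (0.935) lay below their medians of 1.10 and 1.23 there. The 8 fibroblast markers summed to 25.9, 21.4 and 19.4 in Wt CD, 37.7 and 32.4 in Wt HFD, 32.8, 29.4 and 15.4 in ApoE KO CD, and 33.8, 22.4 and 26.2 in ApoE KO HFD. They were thus highest in Wt HFD replicate 1 and lowest in ApoE KO CD replicate 3, the libraries in which most of the 9 genes were high and low. The 5 markers of atrial cardiomyocytes, among them Myl7 and Sln, summed to 71.4, 127.1 and 120.1 in Wt CD, 187.6 and 7.33 in Wt HFD, 121.2, 112.6 and 105.6 in ApoE KO CD, and 83.6, 25.6 and 18.2 in ApoE KO HFD. Wt HFD replicate 1 was again highest, and Wt HFD replicate 2 and ApoE KO HFD replicates 2 and 3 were low. Of the lymphocyte and neutrophil markers, Retnlg and Nkg7 were each at 0 in 9 of 11 libraries and S100a8 in 7. The part of these cells in the values of the 9 genes was not tested. In bulk RNA fewer cells of a type and less RNA per cell cannot be told apart.

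**Figure D4:**
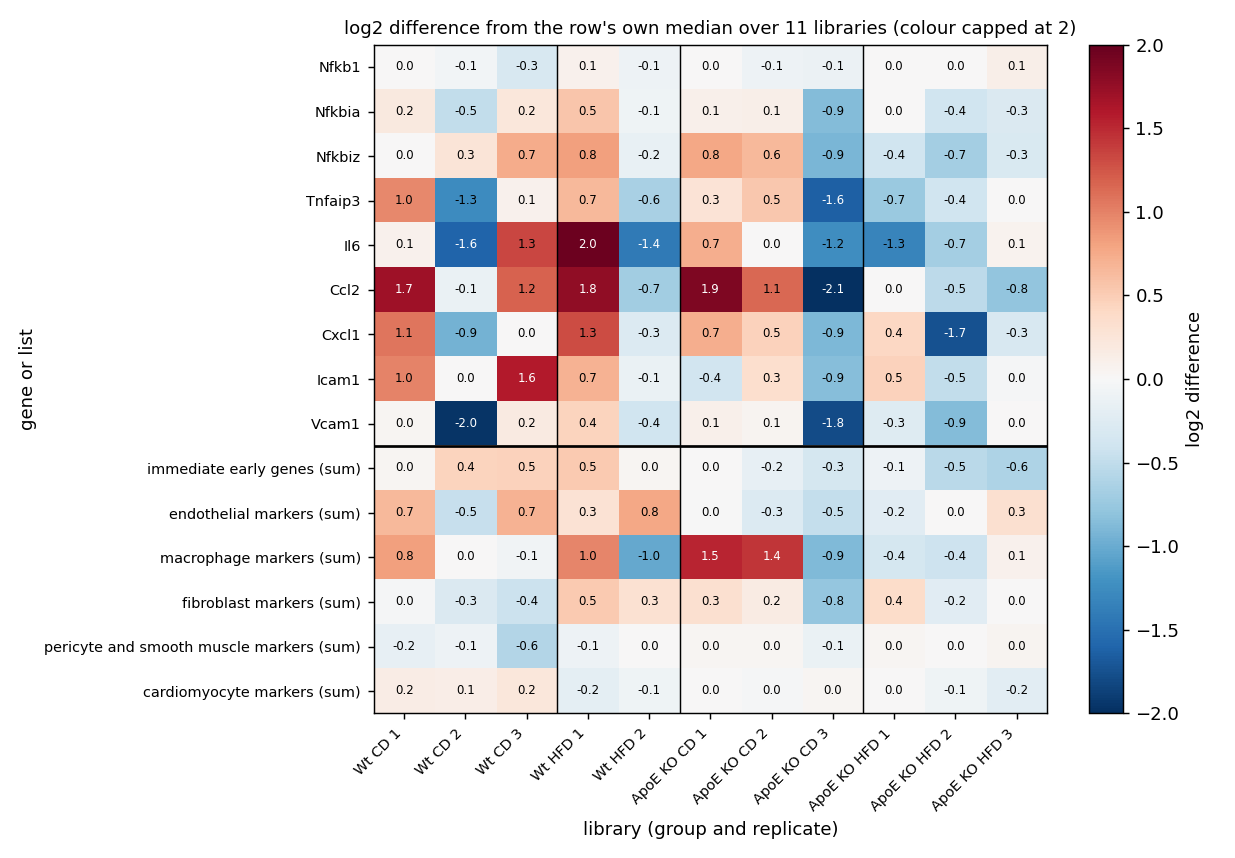
log2 difference of each row from its own median over the 11 libraries, in columns by group and replicate. The upper block shows the TMM-scaled CPM of the 9 genes with nothing added to the counts. The lower block shows summed levels of gene lists, and colour is capped at 2. Wt HFD replicate 1 is red for most of the genes and ApoE KO CD replicate 3 blue, and the macrophage sum is red and blue in the same columns. The macrophage sum is higher still in ApoE KO CD replicates 1 and 2 (32.8 and 30.7 TMM-scaled CPM) and lowest in Wt HFD replicate 2 (5.59). The pericyte and smooth muscle sum differs little between Wt HFD replicate 1 (252.3) and ApoE KO CD replicate 3 (247.9).

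The rest of the pathway was described with 7 lists, and in 6 of them no gene passed in any comparison (edgeR, 540 values of 90 tested genes, 45 of them at an unadjusted p under 0.05). At an unadjusted p under 0.05 the share of all tested genes was 1.53% to 15.9% over the 6 comparisons. DESeq2 called 4 of the 540 values, of Irf1, Jam2 and Tlr4. With no filter on low counts edgeR called 6 of 636, of these genes and Cxcl12. Without Wt CD replicate 2 it called 22 of 546, of 14 genes. Over all tested genes, in the order of comparisons used above, DESeq2 called 204, 168, 20, 434, 28 and 92 of 16932. With no filter edgeR called 296, 272, 26, 475, 49 and 105 of 48951. Without Wt CD replicate 2 it called 1304, 1019, 14, 1801, 20 and 285 of 16732. Of the 11 NF-kappaB subunits and IkappaB proteins, all were tested, and 7 lay above 0 and 4 below in ApoE KO HFD against Wt CD, with a median of 0.04. The smallest p-values belonged to Rel, the c-Rel subunit, at 9.30 ± 0.32 TMM-scaled CPM in Wt CD and 12.4 ± 1.06 in ApoE KO HFD (SD, n = 3 each; log2 fold change 0.41, SE 0.15), to Rela, the p65 subunit (−0.46, SE 0.21, in ApoE KO CD against Wt CD), and to Nfkbid (−2.60, SE 1.16, interaction). None of the 3 passed. All 30 receptors, adaptors and kinases upstream were tested, with 15 above 0 and 15 below in ApoE KO HFD against Wt CD. Closest to the threshold was Tlr4, the receptor of bacterial lipopolysaccharide, at 5.53 ± 1.64 in Wt CD and 9.81 ± 1.15 in ApoE KO CD (SD, n = 3 each). Its log2 fold change was 0.83 (SE 0.19) with an adjusted p of 0.0596 by edgeR, and it passed with DESeq2 (adjusted p = 0.00618), with no filter (edgeR, adjusted p = 0.00124) and without Wt CD replicate 2 (edgeR, adjusted p = 0.00267). In the same comparison the IKK catalytic subunit gene Ikbkb was at −0.51 (SE 0.17) and the adaptor gene Myd88 at −0.67 (SE 0.23), and neither passed. Without Wt CD replicate 2 Ikbkb passed, at −0.66 with an adjusted p of 0.0130 by edgeR. In that fit 10.8% of all 16732 tested genes passed in this comparison, which holds for Tlr4 too.

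Of the 13 inhibitors of the pathway, all tested, 6 lay above 0 and 7 below in ApoE KO HFD against Wt CD, with a median of −0.17. Zc3h12a, an RNase that degrades cytokine transcripts, had 1.297 ± 0.42 TMM-scaled CPM in Wt CD (SD, n = 3) and 2.23 and 2.99 in the Wt HFD libraries, with a log2 fold change of 1.01 (SE 0.32) that did not pass. The deubiquitinase gene Cyld was at 0.32 (SE 0.15) in ApoE KO HFD against Wt CD and the A20-binding gene Tnip1 at −0.36 (SE 0.18) in Wt HFD against Wt CD, and neither passed.

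Of the 25 cytokine and chemokine genes 14 passed the filter. In ApoE KO HFD against Wt HFD all 14 tested were negative, at a median of −0.65 (log2), beside 0.01 for all tested genes, and none passed. Without Wt HFD replicate 1 that median was 0.29, so the direction rested on this library. Against Wt CD 11 of 14 lay below 0 with a median of −0.36, which was 0.10 over the same 14 genes without Wt CD replicate 1. Named by smallest p were Csf1, the macrophage growth factor gene (0.46, SE 0.17, Wt HFD against Wt CD), Cxcl12 (−0.63, SE 0.28, ApoE KO HFD against Wt HFD) and Cx3cl1 (−0.45, SE 0.22, ApoE KO CD against Wt CD). None of these passed.

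Of the 12 adhesion genes of endothelium 10 were tested, and 9 of the 10 lay below 0 in ApoE KO HFD against Wt CD, with a median of −0.17. This stands beside −0.01 and 50.7% below 0 for all tested genes. Of the endothelial markers, which share Pecam1 with this list, 9 of 10 lay below 0 too, with a median of −0.36. The exception among the adhesion genes was Jam2, a junctional adhesion molecule, at 27.9 ± 6.76 TMM-scaled CPM in Wt CD and 42.2 ± 1.85 in ApoE KO HFD (SD, n = 3 each). Its log2 fold change was 0.59 (SE 0.15) with an adjusted p of 0.123 by edgeR. Jam2 passed with DESeq2 (adjusted p = 0.0445), with no filter (edgeR, adjusted p = 0.00529) and without Wt CD replicate 2 (edgeR, adjusted p = 0.00335). In the last of these fits 7.79% of all 16732 tested genes passed. Cd34, a sialomucin of endothelial and stem cells, was at −0.68 (SE 0.24) in ApoE KO CD against Wt CD and did not pass.

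Of 18 other targets 15 were tested, 5 above 0 and 10 below in ApoE KO HFD against Wt CD. Irf1, an interferon-regulated transcription factor gene, had 3.28 ± 1.14 TMM-scaled CPM in Wt CD and 1.35 ± 0.38 in ApoE KO HFD (SD, n = 3 each), a log2 fold change of −1.27 (SE 0.30). Its adjusted p was 0.104 by edgeR, 0.0151 by DESeq2, 0.00979 by edgeR with no filter and 0.0125 by edgeR without Wt CD replicate 2. In the last of these fits 7.79% of all 16732 tested genes passed. Pim1 (−0.67, SE 0.23) and Ier3 (0.64, SE 0.26), both in Wt HFD against Wt CD, did not pass.

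The single edgeR call in the 7 lists was in the immediate early genes, transcription factors and regulators that stimulation induces within minutes and that include AP-1 subunits, the usual partners of NF-kappaB at inflammatory promoters. Fos fell from 99.4 ± 16.3 TMM-scaled CPM in Wt CD to 48.8 ± 1.44 in ApoE KO HFD (SD, n = 3 each), a log2 fold change of −1.03 (SE 0.19) with an adjusted p of 0.0367 by edgeR. The call was lost when Wt CD replicate 3, ApoE KO CD replicate 2 or any 1 of the ApoE KO HFD libraries was left out (adjusted p 0.0637 to 0.202 by edgeR) and with a replicate block (adjusted p = 0.0610) and with all 12 libraries (adjusted p = 0.999). The log2 fold change itself stayed between −0.93 and −1.05 in the fits with 1 of these libraries left out, and it was −1.04 both with the block and with 12 libraries. In ApoE KO HFD against Wt CD 16 of 16 tested members lay below 0, with a median of −0.71, and in ApoE KO HFD against Wt HFD 16 of 16 with a median of −0.77. The list was chosen with earlier results of these data known, so its counts are not an independent test. Myc (−1.31, SE 0.28, adjusted p = 0.0691 by edgeR) and, in ApoE KO CD against Wt CD, Fosb (−1.44, SE 0.31, adjusted p = 0.0628 by edgeR) lay just outside the threshold. Myc passed with DESeq2 (adjusted p = 0.00272), with no filter (edgeR, 0.00121) and without Wt CD replicate 2 (edgeR, 0.0195). In the last of these fits 7.79% of all 16732 tested genes passed. Fosb passed with DESeq2 (adjusted p = 8.3e-05), with no filter (edgeR, 3.4e-11), in the fit of only these 2 groups (edgeR, 0.0219), and without Wt CD replicate 1, either Wt HFD library or ApoE KO CD replicate 2 (edgeR, 0.0232 to 0.0318). Over the 6 comparisons the list held 1 call of 96 values by edgeR, 10 of 96 by DESeq2 and 23 of 108 by edgeR with no filter. In the order of comparisons used above for all tested genes, DESeq2 called 6, 1, 0, 3, 0 and 0. With no filter edgeR called 9, 1, 0, 6, 7 and 0. At an unadjusted p under 0.05 edgeR had 12, 1, 1, 9, 13 and 2 of the 16. The shares of all tested genes there were 14.2%, 12.9%, 1.53%, 15.9%, 2.83% and 8.2%. The summed level of the 18 genes was 683.8 to 914.3 in Wt CD, 678.8 and 956.4 in Wt HFD, 521.1 to 663.5 in ApoE KO CD and 430.9 to 621.7 in ApoE KO HFD.

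Genes whose course over the 11 libraries was closest to each of the 8 tested genes were found among 8519 candidates, by the mean absolute difference of centred log2 levels. For Nfkb1 they were Smg1, Map2k5 and Atp6v0a2 (0.0421 to 0.0468), which were as flat as Nfkb1 itself. For Nfkbia they were Eef1a1, Slc22a4 and Aff2 (0.115 to 0.157), and for Nfkbiz Slit3, Egr1 and Sbk2 (0.204 to 0.274). Tnfaip3 lay closest to Stab1, Dab2 and Vwf (0.299 to 0.331) and Cxcl1 to Bgn, Stab1 and Dab2 (0.363 to 0.436). Ccl2 lay closest to Cd74, Nfkbiz and Mrc1 (0.478 to 0.618), of which Cd74 belongs to antigen presentation and Mrc1 is a macrophage receptor. Icam1 lay closest to Csrnp1, Cyp4b1 and Sorbs3 (0.260 to 0.294), and Vcam1 to Axl, Bgn and Vim (0.250 to 0.274). The measure describes these libraries. They also differed in depth and in the summed markers of cell types, and the part of this in the likeness was not tested.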

How the data were processed

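The 12 cardiomyocyte libraries were made, per the labels, with the SMART-Seq Stranded kit from RNA of a Maxwell RSC simplyRNA kit. The build was GRCm38 (mm10), and reads went through HTSeq 0.13.5, STAR 2.7a and Trimmomatic 0.39 (named without order), per the submitters' processing notes; the strand setting of the counting is not given in the sources used here. The deposited files hold raw read counts per gene, 55335 identifiers each, of which 55154 had a symbol in the GENCODE annotation of GRCm38.

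The 9 genes, the lists and the rule below were chosen with earlier results of these data known. Counts of 11 libraries were fitted with edgeR 4.0.16 in R 4.3.3 (TMM, filterByExpr by group, 1 mean per group, robust quasi-likelihood test, 7 residual degrees of freedom), which tested 16932 genes in 6 comparisons. A gene was called at a two-sided Benjamini-Hochberg adjusted p under 0.05. The procedure was tested on simulated data. Levels per kb use the union of annotated exons. Named were the 9 genes, Apoe, every called gene of a list and, where fewer than 3 were called, the 3 members with the smallest p in any comparison. Of the 7 marker lists only sums and defining markers are given, and for macrophage, endothelial and fibroblast markers also counts below 0 and medians. DESeq2 1.42.0 was an alternative. The labels do not say whether replicate numbers pair libraries across groups. Of 15 same-numbered pairs across groups 1 had deviations from the group means that correlated above 0.1 (range −0.163 to 0.183). With groups this small that cannot exclude a batch shared by replicate number.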

Additional observations from a re-analysis of the deposited data

Results flagged for a closer look

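The library labelled Wt HFD replicate 3, which entered no comparison, held counts for several of the genes above the range of Wt CD. As plain CPM, with no scaling factor, Nfkbia stood at 8.91 there (12 counts) against 3.90 to 5.82 in Wt CD, and Tnfaip3 at 3.71 (5 counts) against 0.848 to 3.64. Il6 stood at 2.97 (4 counts) against 0.0424 to 0.287, Ccl2 at 2.97 (4 counts) against 0.212 to 0.696, and Vcam1 at 3.71 (5 counts) against 0.339 to 1.33. Nfkb1, at 9.65 (13 counts), lay below the Wt CD range of 12.4 to 16.9, and Nfkbiz, at 4.454 (6 counts), just below 4.463 to 7.11. Cxcl1, at 0.742 (1 count), and Icam1, at 2.97 (4 counts), lay inside their ranges of 0.212 to 0.791 and 1.19 to 3.16. A single count there is worth 0.742 CPM, which is already above the Wt CD maximum of Il6 and of Ccl2. In this library 3 counts are worth 2.23 CPM, and 72.7% of its counts over sense and antisense gene pairs were on the non-coding member; the part of this in these values was not tested.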

How the results depend on the processing

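The reported fit is not paired, since the labels do not say whether replicate numbers pair the libraries. As a fit with a replicate block, calls numbered 14 in ApoE KO HFD against Wt CD (26 without the block) and 19 in Wt HFD against Wt CD (35). In the order ApoE KO HFD against Wt CD, Wt HFD against Wt CD, ApoE KO HFD against ApoE KO CD, ApoE KO CD against Wt CD, ApoE KO HFD against Wt HFD and interaction, the reported fit called 26, 35, 12, 86, 8 and 37 genes, DESeq2 called 204, 168, 20, 434, 28 and 92, no filter on low counts gave 296, 272, 26, 475, 49 and 105, and all 12 libraries gave 0, 1, 1, 3, 1 and 8. Fits of only the groups compared called 12 in ApoE KO HFD against Wt CD, 9 in Wt HFD against Wt CD, 38 in ApoE KO CD against Wt CD and 24 in ApoE KO HFD against Wt HFD. Leaving out 1 library gave 0 to 1304, 4 to 1019, 6 to 14, 37 to 1801, 4 to 20 and 20 to 285, with the values 1304, 1019 and 1801 without Wt CD replicate 2. The cause of these shifts was not tested.

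Of 528 values of the 8 tested genes with 1 library left out, 60 changed direction and 2, both Icam1 without Wt CD replicate 2, came to pass; of 325 under the other alternatives 17 changed direction and none passed. With 1 library left out, log2 fold changes that turned ran, in ApoE KO HFD against Wt CD, from −0.94 to 0.0785 for Tnfaip3, −1.09 to 0.13 for Cxcl1 and −0.42 to 0.28 for Vcam1. In Wt HFD against Wt CD they ran from −0.047 to 0.58 for Nfkbia, −0.47 to 0.51 for Nfkbiz, −0.79 to 0.56 for Tnfaip3, −1.72 to 0.71 for Ccl2, −0.51 to 1.08 for Cxcl1 and −0.0387 to 0.79 for Vcam1. In ApoE KO HFD against ApoE KO CD they ran from −0.33 to 0.10 for Nfkbia, −0.77 to 0.0427 for Tnfaip3 and −0.40 to 0.33 for Vcam1. In ApoE KO CD against Wt CD they ran from −0.0553 to 0.10 for Nfkb1, −0.37 to 0.10 for Nfkbia, −0.33 to 0.35 for Nfkbiz, −0.62 to 0.40 for Tnfaip3, −0.91 to 0.46 for Ccl2, −0.42 to 0.61 for Cxcl1 and −0.46 to 0.38 for Vcam1. In ApoE KO HFD against Wt HFD they ran from −0.0472 to 0.14 for Nfkb1, −1.01 to 0.28 for Tnfaip3, −2.15 to 0.28 for Ccl2, −1.56 to 0.0037 for Cxcl1, −0.65 to 0.17 for Icam1 and −0.77 to 0.0656 for Vcam1. For the interaction they ran from −0.12 to 0.11 for Nfkb1, −0.88 to 0.47 for Tnfaip3, −2.08 to 0.35 for Ccl2, −1.56 to 0.0323 for Cxcl1 and −0.78 to 0.0717 for Vcam1.

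With no filter the values that turned were 0.0744 for Vcam1 in ApoE KO HFD against Wt CD, 0.0596 for Tnfaip3 and 0.0103 for Ccl2 in Wt HFD against Wt CD, 0.0347 for Nfkbiz, 0.0062 for Cxcl1 and 0.027 for Vcam1 in ApoE KO CD against Wt CD, and −0.10 for Nfkb1 in the interaction. With all 12 libraries they were, in Wt HFD against Wt CD, −0.15 for Nfkb1, −0.12 for Nfkbiz, 0.0278 for Tnfaip3 and 0.60 for Ccl2. With the replicate block they were 0.0328 for Vcam1 in ApoE KO HFD against Wt CD, −0.0682 for Nfkbiz in Wt HFD against Wt CD, −0.0102 for Vcam1 in ApoE KO HFD against ApoE KO CD, and 0.0543 for Cxcl1 and 0.043 for Vcam1 in ApoE KO CD against Wt CD. Without mitochondrial genes Nfkb1 in the interaction was −0.0155. Depth limited Il6, Ccl2 and Cxcl1 most, with 1 to 34 counts per library.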
